A study of Mus musculus with 29 samples.

Results

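The 8 genes described here, Dgcr8, Dicer1, Ago2, Piwil2, Mov10l1, Ddx4, Mael and Marf1, encode proteins of the small RNA pathways and of the silencing of retrotransposons in the germ line. They were taken by gene symbol from a table of 49997 genes, and all 8 were among the 21768 genes with enough counts to be tested. Poly(A) RNA was read by Smart-seq2, a full-length cDNA method for very small samples, from tubes of 10 pooled mouse oocytes or zygotes. All females carried a floxed Dhx36, the gene of an RNA and DNA helicase that unwinds G-quadruplexes. In the conditional knockout (CKO, Dhx36fl/fl; Zp3-Cre) the recombinase is driven by a promoter active in growing oocytes, and the controls (WT, Dhx36fl/fl) had no Cre. Growing oocytes at 2 weeks of age (GO 2W) had 3 CKO and 3 WT libraries, fully grown oocytes at 3 weeks (FGO 3W) 2 and 2, and fully grown oocytes at 4 weeks (FGO 4W) 3 and 3. Metaphase II oocytes at 3 weeks (MII 3W) had 4 CKO and 3 WT libraries, and zygotes from 3-week-old females (zygote 3W) had 3 and 3. The labels give no male genotype for the zygotes and do not say whether tubes of a group came from separate females, so p-values measure the spread between tubes.

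DGCR8 holds primary microRNA transcripts for cleavage by DROSHA in the nucleus, DICER1 cuts hairpins and long double-stranded RNA into small RNAs, and AGO2 is the Argonaute that carries them and can slice the paired target. Mouse oocytes are known for small interfering RNAs made by DICER1, many of them against retrotransposons, and for weak microRNA activity. In the piRNA pathway, known best from the mouse testis, the helicase MOV10L1 feeds precursor RNA to the PIWI protein MILI, the product of Piwil2, while the DEAD-box helicase DDX4 and the protein MAEL act in the same germ granules. MARF1 is an RNase of oocytes, and its loss in female mice is known to raise retrotransposon RNA and to block meiosis.

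Libraries held 17697507 to 49104313 counts. Levels below are CPM, counts relative to the TMM-scaled library size, and a change is the log2 of CKO over WT from 1 edgeR fit of all 29 libraries. A change is called where the p adjusted over all tested genes is under 0.05. Whole-gene Dhx36 counts cannot check the genotype labels, since the deleted exons are not given. They ran from 338 to 3230 CPM in CKO and 397 to 429 CPM in WT at MII 3W, and no change was below 0 at any stage. Dhx36 was called higher in CKO at MII 3W (1.79, SE 0.43, adjusted p 0.00197), though the groups overlapped. Its change averaged over the 5 stages was called as well (0.61, SE 0.21, adjusted p 0.0149). Oocyte markers summed to 8720 to 28900 CPM in every library, and their sum in CKO was below that in WT without overlap at 4 stages. It was 21800 to 22800 CPM in CKO and 23600 to 28900 in WT at GO 2W, 17700 to 18700 in CKO and 21600 to 24700 in WT at FGO 3W, and 13700 to 17700 in CKO and 22400 to 24800 in WT at FGO 4W. At zygote 3W it was 8720 to 14900 CPM in CKO and 15600 to 17500 CPM in WT, and at MII 3W the sums overlapped. Markers of granulosa cells summed to 79.6 to 107 CPM in CKO and 43.2 to 62.8 CPM in WT at GO 2W, 101 in CKO and 51.3 to 56.6 in WT at FGO 3W, and 58.8 to 78.2 in CKO and 40.5 to 47.5 in WT at FGO 4W. At zygote 3W they summed to 75.8 to 158 CPM in CKO and 50.7 to 58.2 CPM in WT, with overlap at MII 3W. Of these markers Cyp19a1 (27.1 to 140 CPM) and Kitl (4.35 to 17.5 CPM) were present in all 29 libraries, Fshr (up to 32.1 CPM) was at 0 in 2 and Inha (up to 13.1 CPM) in 10, while Ptx3 was at 0 in 29, Amh in 21 and Foxl2 in 19. Leukocyte or blood markers summed to 1.77 to 18.9 CPM in CKO zygotes and 2.27 to 4.38 CPM in WT zygotes. The part of these marker differences in the results was not tested, and in pooled cells fewer cells expressing a gene and less RNA per cell cannot be told apart. CKO MII 3W replicate 3 and CKO zygote 3W replicate 1 stood apart by their 18S ribosomal RNA, with 21.9% and 27.3% of counts on Rn18s-rs5, and results that rest on them are given with and without them.

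The sequences near these genes are shown for motifs that bear on a G-quadruplex helicase and on oocyte transcription. RefSeq (GRCm38.p6) gave the 250 bases before the start site for 6 of the 8 genes, not for Ago2 and Piwil2. These 6 windows had 64.0% to 76.0% G and C, against a median of 52.0% for all windows. The motif shares of all windows given below were not matched for this content. The E-box CACGTG, a binding site type of basic helix-loop-helix factors that reads the same on both strands, lay in 3 of those 6 windows, against 6.05% of 27025 windows of all genes. The windows around it are given with the E-box in capitals, from chr1:166238950-166238979 (minus strand), chr15:88982744-88982765 (plus strand) and chr13:112652322-112652351 (minus strand).
Mael: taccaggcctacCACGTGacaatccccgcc
Mov10l1: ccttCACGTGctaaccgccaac
Ddx4: ggcgtccgcccgCACGTGcagccgtttaag
Between the E-box and the RefSeq start site lay 217 bases in Mael, 240 in Mov10l1 and 23 in Ddx4. The Ddx4 E-box lies inside the longer GENCODE gene. These 3 genes did not move together: Ddx4 was higher in CKO, Mael lower, and Mov10l1 lower at a single stage. On either strand, none of the 6 windows held the homeodomain-type motif TAATTA, found in 4.9% of all windows, its variant TAATTG, found in 7.34%, or the cyclic AMP response element TGACGTCA, found in 1.62%.

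A pattern that could fold into a G-quadruplex, made of 4 stretches of 3 or more G spaced by 1 to 7 bases each, where a spacer may itself be G, was found in the GENCODE vM21 transcripts of 2 of the 8 genes, Ago2 and Marf1, against 18.3% of 20875 genes. They are shown with the G runs in capitals because DHX36 binds such folds. The Ago2 match lay in the 3′ untranslated region at bases 8773 to 8795 of the transcript, a region with a match in 10.1% of genes. That region is 11064 bases long in Ago2, and the shares of genes with a match were not matched for length. The Marf1 match lay in the 5′ untranslated region at bases 57 to 77, where 6.36% of genes had a match.
Ago2: GGGGattGGGctGGGcttaGGGG
Marf1: GGGcctGGGGGGGGtGGGGGG
The Marf1 match has 3 unbroken runs of G and meets the pattern only with a G as a spacer inside a run.
The window before the RefSeq start site of Marf1 (chr16:14159275-14159524, minus strand), which lies inside the longer GENCODE gene, held 2 further matches on its sense strand and the Mael window 1 on the other strand, while 16.2% of all windows had a match on either strand. The Marf1 window is printed for its G content of 54.0%, the highest of the 6, with the matched stretches in capitals.
Marf1 window: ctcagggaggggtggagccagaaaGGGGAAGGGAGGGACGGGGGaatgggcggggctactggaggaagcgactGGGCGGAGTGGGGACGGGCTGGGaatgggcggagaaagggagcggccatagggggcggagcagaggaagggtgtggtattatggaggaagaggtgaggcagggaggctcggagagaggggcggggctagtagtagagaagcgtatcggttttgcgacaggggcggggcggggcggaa
In CKO, Ago2 was lower and Marf1 higher, so the 2 genes with a transcript match moved in opposite directions. A match is a description of letters and not a measured fold or binding site.

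Per length of gene, in the authors' FPKM, the 8 genes spanned a wide range of levels. Mael (median library 54.6 FPKM), Dicer1 (35.2), Ddx4 (17.3) and Marf1 (15.3) were the most abundant. Ago2 (3.7), Mov10l1 (1.98), Dgcr8 (0.922) and Piwil2 (0.258) were lower. This order rests on the gene lengths behind the FPKM, which were not checked against an annotation. Dicer1 was the steadiest, with group means between 23.3 and 43.3 FPKM. Piwil2 group means ran from 0.0773 to 2.23 FPKM and those of Mael from 4.41 to 101 FPKM.

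**Figure D1:**
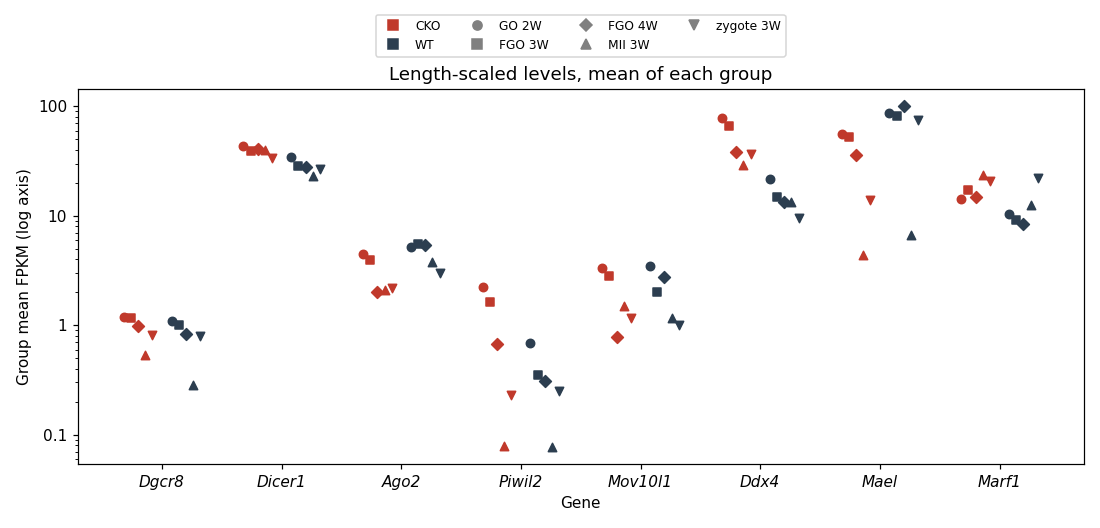
Group mean FPKM of the 8 genes on a log axis, with CKO in red and WT in dark blue and a marker shape for each of the 5 stages. Dicer1 groups lie within 23.3 to 43.3 FPKM, whereas the Mael groups reach from 4.41 to 101 FPKM, with both MII 3W groups far below the others.

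Averaged over the 5 stages, 4 of the 8 genes were higher in CKO and 2 lower, beside 24.4% and 23.6% of all tested genes and 47.9% in either direction. Ddx4 (1.56, SE 0.19, adjusted p 8.74e-08), Piwil2 (0.86, SE 0.19, adjusted p 0.000563), Marf1 (0.46, SE 0.085, adjusted p 5.4e-05) and Dicer1 (0.36, SE 0.065, adjusted p 4.07e-05) were higher. Mael (-1.29, SE 0.083, adjusted p 1.03e-12) and Ago2 (-0.83, SE 0.09, adjusted p 1.4e-08) were lower. The mean changes of Mov10l1 (-0.30, SE 0.15, adjusted p 0.0993) and Dgcr8 (0.17, SE 0.11, adjusted p 0.213) did not pass the test. Without CKO zygote 3W replicate 2, Mov10l1 (-0.39, adjusted p 0.0123) and Dgcr8 (0.26, adjusted p 0.0407) passed it. Stage by stage, 3 of 8 genes were called at GO 2W (13.7% of all tested genes), 5 at FGO 3W (17.8%) and 5 at FGO 4W (26.6%). At MII 3W 5 of 8 were called (32.9% of all tested genes) and at zygote 3W 3 (27%). The median change of the 8 genes ran from 0.056 at GO 2W to 0.38 at MII 3W, and that of all tested genes from -0.054 at FGO 3W to 0.13 at MII 3W.

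**Figure D2:**
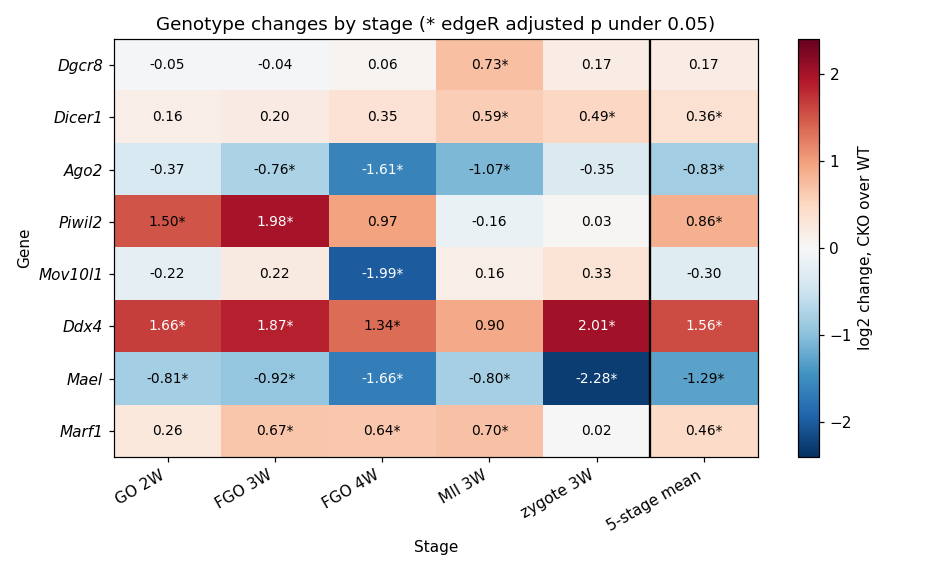
Log2 change of CKO over WT for each of the 8 genes (rows) at the 5 stages and averaged over them (columns), with an asterisk for an edgeR adjusted p under 0.05. Mael is lower in all 5 stage columns (-2.28 at zygote 3W), Ddx4 is above 0 in all 5, and Piwil2 is high at GO 2W (1.5) and FGO 3W (1.98) and near 0 at MII 3W and zygote 3W.

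Among the genes of the microRNA and small interfering RNA pathway, Dicer1 was higher in CKO and Ago2 lower. Dicer1 had 510, 691, 578 and 411 CPM in CKO and 349, 361 and 378 CPM in WT at MII 3W (0.59, SE 0.13, adjusted p 0.000901). At zygote 3W it had 459, 433 and 433 CPM in CKO and 329, 320 and 292 CPM in WT (0.49, SE 0.14, adjusted p 0.00928). All CKO libraries lay above all WT libraries at both stages, and in the 3 earlier oocyte groups as well. Groups apart at all 5 stages with CKO higher occurred in 2.89% of tested genes. The earlier changes were smaller and were not called: 0.16 (SE 0.14, adjusted p 0.51) at GO 2W, 0.20 (SE 0.17, adjusted p 0.463) at FGO 3W and 0.35 (SE 0.14, adjusted p 0.066) at FGO 4W. The FGO 3W change was called in limma on log2(FPKM + 1) (0.45, adjusted p 0.0371) and on log2(FPKM + 0.1) (0.46, adjusted p 0.0444). The FGO 4W change was called under other settings, at 0.40 with RLE size factors (adjusted p 0.0372), 0.42 with that stage alone (adjusted p 0.00922) and 0.53 in limma on log2(FPKM + 1) (adjusted p 0.00282). The zygote call was lost with no low-count filter (0.46, adjusted p 0.0537), in a fit of that stage alone (0.49, adjusted p 0.0868), without WT replicate 3 (0.42, adjusted p 0.0728) and without the 18S-rich CKO replicate 1 (0.39, adjusted p 0.0536). The counts cover the whole gene and cannot separate the shorter oocyte form of Dicer1 from the somatic one. The change did not pass the F test of a difference among stages (adjusted p 0.286).

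Ago2 was lower in CKO from the fully grown oocyte to metaphase II. At FGO 4W it had 10.0, 15.0 and 14.1 CPM in CKO and 39.5, 41.0 and 39.0 CPM in WT (-1.61, SE 0.20, adjusted p 8.86e-07). At MII 3W it had 19.0, 18.6, 16.5 and 27.3 CPM in CKO and 42.6, 41.3 and 44.4 CPM in WT (-1.07, SE 0.18, adjusted p 3.5e-05). The groups were far apart at both stages, with WT tubes within a narrow band. At FGO 3W it had 25.2 and 23.1 CPM in CKO and 42.8 and 38.7 CPM in WT (-0.76, SE 0.24, adjusted p 0.0254). That last call was lost without any 1 of the 4 FGO 3W libraries (adjusted p 0.0703 to 0.198), with no low-count filter (-0.67, adjusted p 0.184) and in limma on log2(FPKM + 1) (-0.40, adjusted p 0.108). At GO 2W (-0.37, SE 0.19, adjusted p 0.22) and zygote 3W (-0.35, SE 0.19, adjusted p 0.184) the groups overlapped and no change was called. The Ago2 change differed among the 5 stages (F test, adjusted p 0.00312), and was larger at FGO 4W than at GO 2W by -1.24 (SE 0.27, adjusted p 0.00592). Of its exon bases 219 of 14031 are shared with Chrac1 on the opposite strand, which averaged 1.78 CPM. Chrac1 was called higher in CKO at FGO 4W (1.44, adjusted p 0.0467) and averaged over the 5 stages (1.01, adjusted p 0.00197).

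Dgcr8, the partner of DROSHA, was called at MII 3W alone, the stage at which it was lowest in WT. It had 9.67, 10.4, 15.2 and 10.6 CPM in CKO and 6.75, 7.33 and 6.71 CPM in WT (0.73, SE 0.23, adjusted p 0.0164). All 4 CKO tubes lay above the 3 WT tubes, and the highest was replicate 3, rich in 18S ribosomal RNA. Without that replicate alone the change was 0.58 and the call was lost (adjusted p 0.0742). Without both 18S-rich libraries the change was 0.59 and still called (adjusted p 0.0436). The call was also lost without WT replicate 1 (0.73, adjusted p 0.0571) or 3 (0.73, adjusted p 0.0583) and in limma on log2(FPKM + 1) (0.26, adjusted p 0.0751). Its change was -0.048 at GO 2W, -0.045 at FGO 3W, 0.063 at FGO 4W and 0.17 in zygotes, all with overlapping groups, and the signs at GO 2W, FGO 3W and zygote 3W turned under other scalings. The change did not pass the F test among stages (adjusted p 0.267). Of the Dgcr8 exon bases 825 of 7696 (10.7%) are shared with Trmt2a on the opposite strand, whose own change at MII 3W was 0.076 (adjusted p 0.82). On the same strand 327 (4.25%) are shared with Gm49776, which was not among the genes counted. A strand setting for counting is not given in the sources used here, so reads of the shared bases cannot be told apart.

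**Figure D3:**
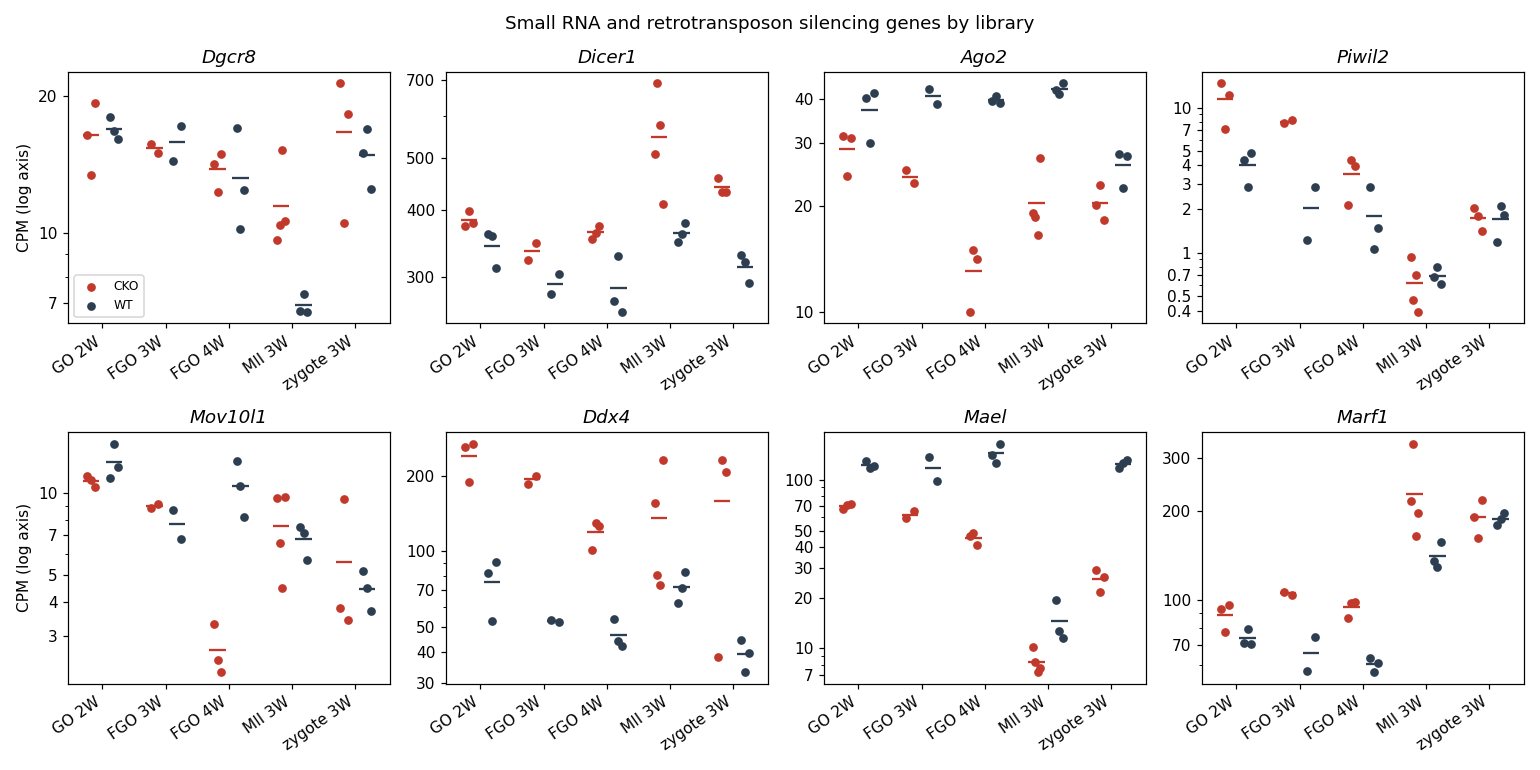
CPM of each of the 8 genes in every library on log axes, 1 panel per gene, with CKO in red left of WT in dark blue at each stage and a bar at the group mean. Mael CKO points lie below the WT points at all 5 stages, and Dicer1 CKO points above them. CKO zygote 3W replicate 1 is the low red Ddx4 point, at 38.2 CPM.

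Of the piRNA pathway genes, Ddx4 was called higher in CKO at 4 stages and Piwil2 at 2, GO 2W and FGO 3W. Mael was called lower at every stage and Mov10l1 at FGO 4W. Piwil2, which encodes MILI, had 14.7, 7.13 and 12.3 CPM in CKO and 4.36, 2.83 and 4.84 CPM in WT at GO 2W (1.5, SE 0.41, adjusted p 0.0125). At FGO 3W it had 7.85 and 8.15 CPM in CKO and 1.22 and 2.84 CPM in WT (1.98, SE 0.50, adjusted p 0.00655). CKO and WT tubes did not overlap at either stage. The FGO 3W call was lost without WT replicate 1 (1.52, adjusted p 0.15). The GO 2W call was lost without WT replicate 2 (1.3, adjusted p 0.0806) and without CKO replicate 1 (1.27, adjusted p 0.0785). At FGO 4W Piwil2 averaged 3.49 ± 1.20 CPM in CKO and 1.79 ± 0.917 CPM in WT (SD, n = 3 each; 0.97, SE 0.41, adjusted p 0.085). It passed the test there without WT replicate 1 (1.46, adjusted p 0.0242), without CKO replicate 1 (1.22, adjusted p 0.0447), in DESeq2 (1.02, adjusted p 0.048) and in limma on log2(FPKM + 0.1) (0.96, adjusted p 0.0403). At MII 3W it had few reads, 28, 16, 14 and 10 counts in CKO and 18, 18 and 16 counts in WT, and a change between genotypes was not detectable at this depth (-0.16, 95% interval -1.04 to 0.72). At zygote 3W the change was 0.027 (95% interval -0.85 to 0.90). The Piwil2 change differed among stages (F test, adjusted p 0.0321) and was smaller at MII 3W than at FGO 3W by -2.13 (SE 0.65, adjusted p 0.0272), a difference that missed the threshold without WT FGO 3W replicate 1 (-1.65, adjusted p 0.163), CKO FGO 3W replicate 1 (-2.16, adjusted p 0.0773) or 2 (-2.11, adjusted p 0.092), or WT MII 3W replicate 2 (-2.06, adjusted p 0.0578).

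Ddx4, a germ cell marker and RNA helicase of germ granules, was called higher at 4 of the 5 stages. It had 259, 188 and 268 CPM in CKO and 82.4, 53.0 and 90.6 CPM in WT at GO 2W (1.66, SE 0.40, adjusted p 0.00549). At FGO 3W it had 186 and 200 CPM in CKO and 53.3 and 52.3 CPM in WT (1.87, SE 0.50, adjusted p 0.00873), and at FGO 4W 101, 130 and 126 CPM in CKO and 53.9, 44.3 and 42.2 CPM in WT (1.34, SE 0.40, adjusted p 0.0134). Every CKO tube of these oocyte stages exceeded every WT tube, and the fitted fold of CKO over WT was 3.16 for GO 2W, 3.66 for FGO 3W and 2.54 for FGO 4W. The FGO 3W call was lost without WT replicate 1 (1.91, adjusted p 0.0621) or 2 (1.85, adjusted p 0.0711), and the FGO 4W call without WT replicate 3 (1.27, adjusted p 0.0527). At MII 3W the 4 CKO tubes split, with 156, 80.9, 73.6 and 231 CPM in CKO and 62.5, 71.9 and 82.7 CPM in WT (0.90, SE 0.38, adjusted p 0.0656). The 2 lower CKO tubes lay within the WT range. The MII 3W change passed the test with no low-count filter (0.93, adjusted p 1.56e-05), without CKO replicate 2 (1.09, adjusted p 0.0282) or the 18S-rich replicate 3 (1.12, adjusted p 0.0237) and was 0.55 (adjusted p 0.24) without replicate 4. At zygote 3W Ddx4 had 38.2, 230 and 206 CPM in CKO and 44.6, 33.2 and 39.7 CPM in WT (2.01, SE 0.41, adjusted p 0.000462). CKO replicate 1 lay among the WT zygotes and the other CKO tubes far exceeded every WT zygote. That replicate is the tube with 27.3% of counts on 18S ribosomal RNA, and it also had the highest Dhx36 of the CKO zygotes (758 CPM, against 304 and 362). Without it the change was 2.41 (adjusted p 6.27e-07), and the part of these differences in the result was not tested. In CKO zygote replicate 1 Mael (29 CPM) and Dicer1 (459 CPM) lay with the other CKO zygotes and outside the WT range. At MII 3W the CKO tube with the highest Dhx36 (3230 CPM) had 156 CPM of Ddx4, above the WT range. The Ddx4 change did not pass the test of a difference among stages (F test, adjusted p 0.416).

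Mael, whose product is needed for retrotransposon silencing in the mouse testis, was lower in CKO at all 5 stages. All 5 stages were called lower in 1.2% of tested genes, and groups apart at all 5 stages with CKO lower occurred in 3.14%. It had 67.1, 71.2 and 71.4 CPM in CKO and 130, 118 and 120 CPM in WT at GO 2W (-0.81, SE 0.18, adjusted p 0.0023). At FGO 4W it had 46.4, 48.4 and 41.1 CPM in CKO and 140, 126 and 164 CPM in WT (-1.66, SE 0.18, adjusted p 1.27e-07). The CKO tubes were tightly grouped at both stages and lay well below the WT tubes. At FGO 3W it had 59 and 65 CPM in CKO and 136 and 98.3 CPM in WT (-0.92, SE 0.22, adjusted p 0.00347), a call lost without WT replicate 1 (-0.64, adjusted p 0.155) and without CKO replicate 1 (-0.85, adjusted p 0.0623). At MII 3W both genotypes were low, with 10.2, 8.31, 7.24 and 7.64 CPM in CKO and 19.4, 12.6 and 11.5 CPM in WT (-0.80, SE 0.17, adjusted p 0.000535). At zygote 3W the level was 29, 21.7 and 26.5 CPM in CKO and 118, 125 and 131 CPM in WT (-2.28, SE 0.18, adjusted p 1.67e-09). The WT zygotes overlapped the WT oocytes of GO 2W, FGO 3W and FGO 4W, whereas every CKO zygote was below every CKO tube of those stages. The change differed among stages (F test, adjusted p 8.37e-05): it was -1.48 (SE 0.25, adjusted p 0.000116) lower at zygote 3W than at MII 3W.

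Mov10l1 was lower in CKO at FGO 4W and was not called at the other stages. It had 3.31, 2.45 and 2.21 CPM in CKO and 13.1, 10.6 and 8.19 CPM in WT at FGO 4W (-1.99, SE 0.34, adjusted p 6.42e-05). The CKO tubes were the lowest of all 29 but close to 2 of the CKO zygotes, and every WT tube of that stage lay well above the highest CKO tube. At GO 2W it averaged 11.1 ± 0.555 CPM in CKO and 13 ± 1.93 CPM in WT (SD, n = 3 each; -0.22, adjusted p 0.716), and at FGO 3W the change was 0.22 (adjusted p 0.762). At MII 3W it had 9.61, 6.56, 4.49 and 9.68 CPM in CKO and 7.50, 7.15 and 5.68 CPM in WT (0.16, adjusted p 0.723). At zygote 3W the CKO tubes had 3.80, 9.51 and 3.43 CPM, against 5.17, 4.51 and 3.71 CPM in WT (0.33, adjusted p 0.499), and without CKO replicate 2 the change was -0.31. The change differed among stages (F test, adjusted p 0.00162), with -1.77 (SE 0.46, adjusted p 0.0195) for FGO 4W minus GO 2W and 2.16 (SE 0.45, adjusted p 0.00116) for MII 3W minus FGO 4W. The first of these missed the threshold without WT GO 2W replicate 1 (adjusted p 0.0587), WT FGO 4W replicate 1 (adjusted p 0.0633) or CKO FGO 4W replicate 3 (adjusted p 0.061). For MII 3W minus FGO 3W, groups of the same age, the difference was -0.053 (SE 0.49, adjusted p 0.985).

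Marf1, the oocyte RNase gene, was higher in CKO in fully grown and metaphase II oocytes and was not called in zygotes. It had 87.0, 97.6 and 97.8 CPM in CKO and 63.4, 56.9 and 60.9 CPM in WT at FGO 4W (0.64, SE 0.18, adjusted p 0.01). At MII 3W it had 216, 337, 164 and 196 CPM in CKO and 135, 129 and 157 CPM in WT (0.70, SE 0.17, adjusted p 0.0023). The groups did not overlap at either stage, though at MII 3W the lowest CKO tube was close to the highest WT tube. At FGO 3W it had 106 and 104 CPM in CKO and 57.2 and 74.8 CPM in WT (0.67, SE 0.22, adjusted p 0.0374), a call lost without WT replicate 1 (0.52, adjusted p 0.317), CKO replicate 1 (0.65, adjusted p 0.16) or CKO replicate 2 (0.68, adjusted p 0.142). At GO 2W Marf1 averaged 88.8 ± 9.58 CPM in CKO and 74.0 ± 4.60 CPM in WT (SD, n = 3 each; 0.26, adjusted p 0.378), a change called in a fit of that stage alone (0.34, adjusted p 0.0323). In zygotes it averaged 190 ± 27.7 CPM in CKO and 188 ± 9.20 CPM in WT (SD, n = 3 each; 0.017, 95% interval -0.36 to 0.39). The change did not pass the test of a difference among stages (F test, adjusted p 0.12). Marf1 shares 77 of 10153 exon bases with Nde1 on the opposite strand, which was lower in CKO on average (-0.81, adjusted p 2.76e-06).

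At FGO 3W, with 2 tubes in each group, all 5 calls among the 8 genes were lost without WT replicate 1, and between 0 and 3 were kept without any 1 tube. CKO and WT tubes did not overlap there for 69% of all tested genes. At the other stages the share of all genes with groups apart was 44% at GO 2W, 46.7% at FGO 4W, 37.5% at MII 3W and 30.3% at zygote 3W.

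Between GO 2W and FGO 4W 4 of the 8 genes were lower in CKO and 0 were called in WT (2.47% of all genes) by edgeR, limma on FPKM or DESeq2. In WT 1 gene, Piwil2, had an unadjusted edgeR p under 0.05 (-1.17, SE 0.41, p 0.0087, adjusted p 0.144). In CKO 9.48% of all genes were lower at FGO 4W and 17.1% were called in either direction. The 4 lower genes were Mov10l1 (-2.07, SE 0.34, adjusted p 8.57e-05), Piwil2 (-1.70, SE 0.41, adjusted p 0.00414), Ago2 (-1.15, SE 0.20, adjusted p 0.000147) and Mael (-0.63, SE 0.18, adjusted p 0.0137), the last lost without CKO FGO 4W replicate 3 (-0.56, adjusted p 0.0715). The genotype change itself was lower at FGO 4W than at GO 2W in 3 genes, Ago2, Mov10l1 and Mael (-0.85, SE 0.25, adjusted p 0.0405), beside 3.46% of all genes lower and 5.37% in either direction. The difference for Mael lost its call without any 1 of 11 of the 12 libraries of these stages (adjusted p 0.0539 to 0.111), WT FGO 4W replicate 2 excepted, with RLE size factors (-0.80, adjusted p 0.0649) and with no low-count filter (-0.86, adjusted p 0.0807). Between GO 2W and FGO 3W edgeR, limma and DESeq2 called 0 of 8 in CKO (4.39% of all genes), in WT (1.04%) or for the difference of the genotype change (1.67%). At an unadjusted edgeR p under 0.05 the counts were 0 in CKO, 2 in WT (Piwil2, -0.98, and Mov10l1, -0.75) and 0 for the difference.

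Around meiotic maturation Mael was far lower at MII 3W than in fully grown oocytes in both genotypes, and Piwil2 was lower in CKO and, depending on the setting, in WT. Against FGO 3W, 4 of 8 genes were called in CKO and 4 in WT, beside 50.1% and 48.3% of all genes. Mael was lower by -2.89 in CKO (SE 0.18, adjusted p 3.16e-13) and -3.01 in WT (SE 0.20, adjusted p 7.57e-13), and Piwil2 by -3.67 in CKO (SE 0.43, adjusted p 3.99e-08) and -1.54 in WT (SE 0.47, adjusted p 0.00766). The WT value of Piwil2 lost its call without WT FGO 3W replicate 2 (-0.83, adjusted p 0.279) and in limma on log2(FPKM + 1) (-0.32, adjusted p 0.109). Dgcr8 was called lower in WT (-1.19, SE 0.27, adjusted p 0.000476), and its change in CKO was not called. Marf1 was higher by 1.12 in CKO (SE 0.20, adjusted p 3.47e-05) and 1.09 in WT (SE 0.21, adjusted p 8.49e-05), but missed the threshold in limma on log2(FPKM + 1), at 0.37 in CKO (adjusted p 0.116) and 0.45 in WT (adjusted p 0.0806). Dicer1 was higher in CKO by 0.71 (SE 0.15, adjusted p 0.000296), and by 0.0052 in that limma fit. Against FGO 4W, 6 of 8 were called in CKO (56.1% of all genes) and 5 in WT (52.1%), and the difference of the genotype change was called for 2, Mael (0.87, SE 0.25, adjusted p 0.0139) and Mov10l1, beside 17.7% of all genes. Mael was lower at MII 3W than at FGO 4W by -2.44 in CKO (SE 0.17, adjusted p 1.3e-12) and -3.31 in WT (SE 0.19, adjusted p 4.08e-14), and Piwil2 by -2.48 in CKO (SE 0.40, adjusted p 6.5e-06) and -1.36 in WT (SE 0.44, adjusted p 0.0111). The WT value of Piwil2 was -0.87 without WT FGO 4W replicate 1 (adjusted p 0.126) and -0.27 in limma on log2(FPKM + 1) (adjusted p 0.122). Dgcr8 was lower in WT by -0.93 (SE 0.25, adjusted p 0.00217). The Mael difference of the genotype change missed the threshold without WT MII 3W replicate 2 (0.75, adjusted p 0.06) or 3 (0.70, adjusted p 0.0688). Against FGO 3W, of the same age as MII 3W, the difference of the genotype change was 0.12 for Mael (SE 0.27, adjusted p 0.831). For Mov10l1 it was -0.053 (SE 0.49, adjusted p 0.985).

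Marf1 and Dicer1 were higher at MII 3W in counts scaled by TMM. The size of the Marf1 rise, and the Dicer1 rise itself, depended on the scaling. Against FGO 4W, Marf1 was higher by 1.28 in CKO (SE 0.18, adjusted p 4.96e-07) and 1.22 in WT (SE 0.18, adjusted p 2.36e-06), and by 0.59 in CKO and 0.55 in WT in the lower of the FPKM fits. These Marf1 differences were called in all 8 other settings (adjusted p up to 0.00639 in CKO and 0.0159 in WT). Dicer1 was higher by 0.59 in CKO (SE 0.13, adjusted p 0.000383) and 0.35 in WT (SE 0.14, adjusted p 0.0389), but in limma on log2(FPKM + 1) these values were -0.033 in CKO and -0.24 in WT. The WT call of Dicer1 was also lost without WT FGO 4W replicate 1 or 3 or any 1 of the WT MII 3W replicates (adjusted p 0.102 to 0.172), with no low-count filter (0.30, adjusted p 0.217) and without both 18S-rich tubes (0.30, adjusted p 0.0617). Ago2 in CKO (0.64, SE 0.18, adjusted p 0.00435) was 0.025 in that fit. Mov10l1 in CKO was higher by 1.51 (SE 0.32, adjusted p 0.000209) at MII 3W than at FGO 4W, where it was lowest. Against FGO 3W its difference in CKO was -0.24 (SE 0.34, adjusted p 0.577). The median of all genes for MII 3W against FGO 4W was -0.18 in CKO and -0.23 in WT under TMM. In limma on log2(FPKM + 1) that median was -0.40 in CKO and -0.33 in WT. Libraries were made from poly(A) RNA. A change in tail length and a change in RNA amount therefore cannot be told apart at maturation, in zygotes or between genotypes.

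From MII 3W to zygote 3W Mael was higher in both genotypes, by 1.62 in CKO (SE 0.17, adjusted p 4.93e-08) and 3.10 in WT (SE 0.19, adjusted p 1.76e-12). In CKO 2 of 8 genes were called (22.2% of all genes) and in WT 4 (34%), and the difference of the genotype change was called for Mael alone (15.7% of all genes). Piwil2 was higher in zygotes by 1.47 in CKO (SE 0.41, adjusted p 0.00979) and 1.29 in WT (SE 0.44, adjusted p 0.0249) over MII 3W means of 0.623 CPM in CKO and 0.696 CPM in WT. The WT value of Piwil2 missed the threshold without WT MII 3W replicate 1 or 3 or WT zygote 3W replicate 2 or 3 (adjusted p 0.055 to 0.086), and that of CKO without both 18S-rich tubes (1.35, adjusted p 0.0528). In limma on log2(FPKM + 1) neither was called, at 0.19 in CKO (adjusted p 0.351) and 0.21 in WT (adjusted p 0.289), and 1 dispersion for all genes also ended the WT call (1.3, adjusted p 0.0764). Dgcr8 was higher in WT zygotes by 1.10 (SE 0.25, adjusted p 0.000828) and Ago2 lower by -0.72 (SE 0.19, adjusted p 0.00465). In limma the Ago2 difference was not called, at -0.25 on log2(FPKM + 1) (adjusted p 0.208) and -0.32 on log2(FPKM + 0.1) (adjusted p 0.233). Stage and age change together between GO 2W and either group of fully grown oocytes, and between FGO 4W and MII 3W. They cannot be told apart there, and an unlabelled batch cannot be told apart from stage in any of these comparisons.

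The order of the 10 groups by mean CPM differed from gene to gene. For Mael 4 WT groups (FGO 4W, zygote 3W, GO 2W and FGO 3W) came first and overlapped one another, then 4 CKO groups without overlap between neighbours, then MII 3W of WT and of CKO. The highest Mael group mean was 17.3 times the lowest. For Ddx4 the 5 CKO groups held the first 5 places and overlapped in turn, all 5 WT groups followed, and the fold between the ends was 6.07. For Piwil2 the fold was 18.3, with CKO GO 2W and CKO FGO 3W at the top, followed by WT GO 2W. For Dicer1 the fold was 1.92 and neighbours overlapped in 8 of 9 pairs. For Marf1 the 4 groups of MII 3W and zygote 3W led the other 6, with a fold of 3.77. For Ago2, Mov10l1 and Dgcr8 the folds were 3.26, 4.89 and 2.44, and 7, 7 and 8 of 9 neighbouring pairs overlapped.

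The 2 genes most alike to each member over the 29 libraries, by Pearson r of log2 CPM, are a description of shared stage, genotype and library differences. For Mael they were Tbc1d7 (0.977) and Ik (0.975), and for Marf1 Dpysl3 (0.939) and Ino80d (0.931). For Ddx4 they were Marveld2 (0.928) and Krit1 (0.915), for Ago2 S1pr3 (0.926) and 9130409I23Rik (0.913), and for Piwil2 Ldhc (0.922) and Xpot (0.91). For Dicer1 they were Rtn4 (0.911) and Pag1 (0.908), and for Dgcr8 Mcat (0.841) and Ankrd13a (0.84). For Mov10l1 they were Dtd2 (0.824) and Nlrp5 (0.823), the lowest r of the 8.

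Other genes of the same pathways were counted in lists chosen by function. Of 22 further piRNA pathway genes, all tested, 4 were higher in CKO, 12 lower and 6 not called in the change averaged over the 5 stages, with a median of -0.37 beside 0.044 for all genes, of which 24.4% were higher and 23.6% lower. From GO 2W to zygote 3W, 2, 6, 9, 6 and 11 of the 22 were lower, and 2, 2, 1, 5 and 4 were higher, beside 13.7%, 17.8%, 26.6%, 32.9% and 27% of all genes called in either direction. Tdrd12, a Tudor-domain partner of PIWI proteins, averaged 158 CPM in CKO and 261 CPM in WT over the groups (-0.72, SE 0.07, adjusted p 2.03e-09). Rnf17, another Tudor-domain gene (-0.77, SE 0.096, adjusted p 1.44e-07), and Gtsf1, a zinc-finger cofactor of PIWI proteins (-0.58, SE 0.064, adjusted p 1.76e-08), were lower as well. Tdrkh, whose product binds PIWI proteins on mitochondria, was higher (0.52, SE 0.064, adjusted p 1.16e-07).

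Of 20 further microRNA and small interfering RNA genes, 6 were higher, 6 lower and 8 not called, beside 47.9% of all genes called, and their median was 0.036. At MII 3W 8 were higher and 5 lower, beside 32.9% of all genes called, and their median was 0.68 beside 0.13 for all genes. Tnrc6a, the GW182 partner of Argonautes, averaged 46.7 CPM in CKO and 14.5 CPM in WT (1.61, SE 0.13, adjusted p 1.22e-10) and was called higher at all 5 stages, as were 1.71% of all tested genes. Lin28b, an inhibitor of let-7 processing, averaged 14.1 CPM in CKO and 30.7 CPM in WT (-1.05, SE 0.10, adjusted p 2.82e-09). Snd1, a subunit of the RISC complex with nuclease activity, was lower (-0.82, SE 0.073, adjusted p 4.08e-10), and Ran, the GTPase used by exportin in hairpin export, was higher (0.78, SE 0.085, adjusted p 1.62e-08).

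Of 28 genes of chromatin silencing, 5 were higher, 14 lower and 9 not called, with a median of -0.21, beside 24.4% of all genes higher and 23.6% lower. Atrx, a chromatin remodeller (-0.95, SE 0.096, adjusted p 4.27e-09), Suv39h1, a histone H3 lysine methyltransferase (-0.91, SE 0.10, adjusted p 2.12e-08), and Zfp57, a zinc-finger protein that recruits TRIM28 (-0.47, SE 0.078, adjusted p 1.19e-05), were lower. Morc3 was higher (0.92, SE 0.11, adjusted p 1.28e-07). Of 14 genes that restrict retrotransposons at the RNA level, 11 were tested, with 2 higher, 4 lower and 5 not called, beside 47.9% of all genes called, and a median of 0.0088, and the others were too low to test. Mov10, the helicase paralogue of Mov10l1, averaged 14.4 CPM in CKO and 6.41 CPM in WT (1.22, SE 0.13, adjusted p 6.24e-09). Ythdf2, a reader of N6-methyladenosine, was higher (0.72, SE 0.083, adjusted p 4.5e-08), while the methyltransferase gene Mettl3 (-0.94, SE 0.12, adjusted p 4.57e-07) and Tex19.1 (-0.47, SE 0.086, adjusted p 5.27e-05) were lower. Of 5 genes linked to MARF1, Dcp2 (-0.78, SE 0.087, adjusted p 2.38e-08) and Dcp1a (-0.26, SE 0.071, adjusted p 0.00327) of the decapping complex were lower on average. Dcp1a was called lower at 3 stages and higher at 1. Edc3, an enhancer of decapping (1.80, SE 0.38, adjusted p 0.000276), and Ppp2cb, the transcript reported to rise in Marf1 mutant oocytes (1.67, SE 0.48, adjusted p 0.00513), were higher at levels of 2.26 CPM and 0.84 CPM in CKO and 0.768 CPM and 0.265 CPM in WT. Edc3 and Ppp2cb were each called higher at 1 stage. The members of each list went both ways, and no test of a list as a whole was made.

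**Figure D4:**
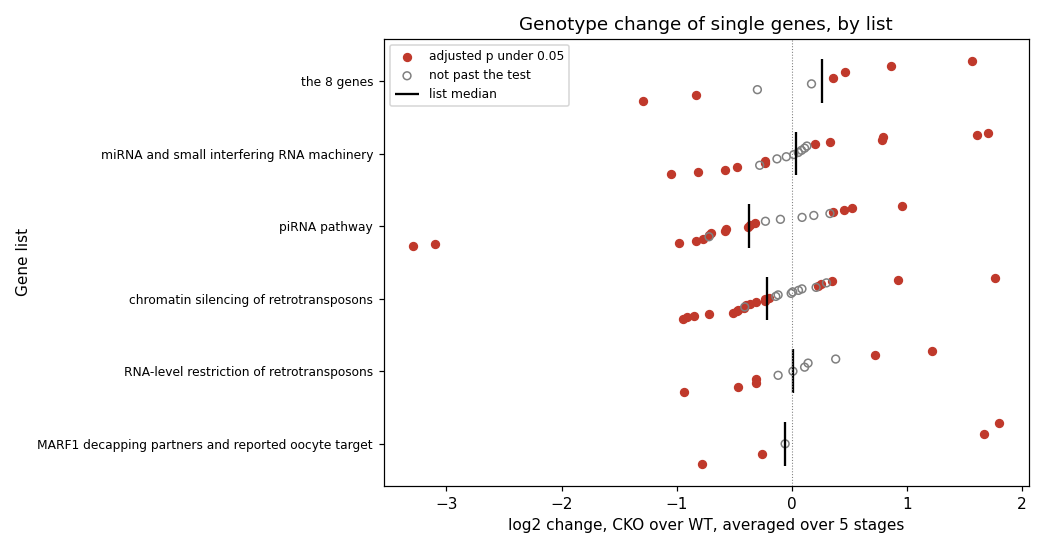
Log2 change of CKO over WT averaged over the 5 stages for single genes (points), with the 8 genes in the top row and the 5 further lists below. Filled points passed the edgeR test and black bars are medians: 0.27 for the 8 genes, 0.036 for the microRNA and small interfering RNA list and -0.37 for the piRNA list.

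In GRCm38 (GENCODE vM21) the 8 genes lie apart. Mael is on chromosome 1 (166201201 to 166238747, minus strand), Dicer1 on chromosome 12 (104687742 to 104751952, minus), Ddx4 on chromosome 13 (112598333 to 112652475, minus) and Piwil2 on chromosome 14 (70372477 to 70429383, minus). Ago2 (73095844 to 73184935, minus) and Mov10l1 (88982909 to 89055152, plus) are on chromosome 15, and Marf1 (14109173 to 14163351, minus) and Dgcr8 (18253948 to 18289246, minus) on chromosome 16. Ago2 and Mov10l1 were both lower at FGO 4W, and of the chromosome 16 pair Marf1 was higher there and Dgcr8 was not called.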

How the data were processed

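The authors deposited raw read counts per gene symbol and FPKM for the same 29 libraries. Per the submitters' processing notes, Trim Galore, FastQC, HISAT2, SAMtools and featureCounts were used on mm10, and versions, annotation and strand setting are not given in the sources used here. For 8111 genes the deposited FPKM was proportional to the count over library total, within 1e-09. The gene lengths behind the FPKM were not checked. Among small counts (1 to 20), 81% were even numbers, as when each end of a read pair is counted.

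One edgeR 4.0.16 model (R 4.3.3) was fitted to the counts with TMM, filterByExpr (minimum count 10), a dispersion trend and quasi-likelihood F tests over 10 groups, with Benjamini-Hochberg adjustment over 21768 genes. The SE is the log2 change over the square root of F. Alternatives were RLE size factors, no filter, 1 dispersion, 1 stage alone, a replicate block, limma 3.58.1 on log2(FPKM + 1) or log2(FPKM + 0.1), DESeq2 1.42.0 and single libraries left out. The 8 genes and the lists were chosen with earlier results of these data known; up to 4 genes per list with the smallest adjusted p are named, besides Dhx36. Intervals cover model error only, and reads carry no molecular identifiers.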

Additional observations from a re-analysis of the deposited data

Results flagged for a closer look

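Dgcr8 in CKO MII 3W oocytes had 1 library apart from the others: replicate 3 had 15.2 CPM, the other 3 had 9.67 to 10.6 CPM, and the gap was 0.837 of the whole range. This replicate is also the one with 21.9% of its counts on Rn18s-rs5. The gene and group were picked for this gap, and how often chance gives one was not computed. The part of this replicate in the result was not tested. The Dgcr8 change was 0.58 without it (adjusted p 0.0742) and 0.59 without both 18S-rich libraries (adjusted p 0.0436).

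The change of CKO over WT differed between stages for 4 of the 8 genes in edgeR interaction tests. The F test among the 5 stages called 30.3% of all tested genes. Of the single differences, FGO 4W minus GO 2W was called for 5.37% of all tested genes and MII 3W minus FGO 3W for 14.7%. The shares were 17.7% for MII 3W minus FGO 4W and 15.7% for zygote 3W minus MII 3W. For FGO 4W minus GO 2W the differences were -1.24 for Ago2, -0.85 for Mael and -1.77 for Mov10l1. For MII 3W minus FGO 3W it was -2.13 for Piwil2. For MII 3W minus FGO 4W they were 0.87 for Mael and 2.16 for Mov10l1, and for zygote 3W minus MII 3W it was -1.48 for Mael. Those of Ago2 (-1.35 to -1.08), of Mov10l1 for MII 3W minus FGO 4W (1.98 to 2.35) and of Mael for zygote 3W minus MII 3W (-1.81 to -1.39) passed the test without any 1 library, and the other 4 did not. For MII 3W minus FGO 3W the differences of Mael (0.12) and Mov10l1 (-0.053) were not called.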

How the results depend on the processing

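Over the 8 genes, 425 of 464 genotype values with 1 library left out kept direction and call, 20 lost the call, 7 gained it and 12 changed sign; under the other settings 379 of 424 kept both, 7 lost the call, 14 gained it and 24 changed sign. No called genotype change turned round.

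Counts of genes called moved as follows. For MII 3W minus FGO 3W (1 gene) it was 2 with no filter. For zygote 3W minus MII 3W (1 gene) it was 2 with RLE size factors, both limma fits and DESeq2, and 3 with no filter or without both 18S-rich libraries. For zygote against MII in CKO (2 genes) it was 1 in limma on log2(FPKM + 1) and without both 18S-rich libraries, and for FGO 4W against GO 2W in WT (0 genes) 1 with no filter. With 1 library left out the counts ran from 0 to 3 for CKO against WT at FGO 3W, 1 to 3 for FGO 4W minus GO 2W, 0 to 1 for MII 3W minus FGO 3W, 1 to 2 for MII 3W minus FGO 4W, 1 to 3 for zygote 3W minus MII 3W, 2 to 4 for zygote against MII in CKO and 3 to 5 for MII against FGO 4W in WT.

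Replicate numbers did not pair the tubes: in 0 of 14 same-numbered pairs did deviations correlate above 0.1 (-0.0797 to 0.0392). With a replicate block the call for MII 3W minus FGO 3W fell to 0 genes, zygote 3W minus MII 3W had 2, and Mov10l1 at MII 3W was -0.031. The call of Marf1 at FGO 3W (0.68, adjusted p 0.0718) and the differences of Mael for FGO 4W minus GO 2W (-0.85, adjusted p 0.0687) and of Piwil2 for MII 3W minus FGO 3W (-2.11, adjusted p 0.063) were lost, and the mean change of Mov10l1 was called (-0.37, adjusted p 0.0422). The block moved no count of CKO against WT by over 1.5 times.

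Signs of genotype changes turned only where no change was called. Dgcr8 at GO 2W was 4.2e-05 with no filter, 0.029 with that stage alone and 0.062 and 0.10 in limma, and at FGO 3W it was 0.0087 (RLE and DESeq2), 0.039, 0.050, 0.11, 0.21 and 0.027 (without the 18S-rich libraries). Piwil2 at MII 3W was 0.0022 and 0.00091 in limma. In zygotes, Piwil2 was -0.016, -0.020, -0.062 and -0.17, Marf1 -0.022, -0.12, -0.13 and -0.053 (no filter, both limma fits and without the 18S-rich libraries), and Dgcr8 -0.010 and -0.11 in the last pair of these. The called stage difference of Dicer1, MII 3W against FGO 4W, was -0.033 and -0.034 in CKO and -0.24 and -0.25 in WT in limma. With 1 library left out the ranges were -0.18 to 0.077 for Dgcr8 at GO 2W, -0.14 to 0.085 at FGO 3W, -0.092 to 0.29 at FGO 4W and -0.11 to 0.41 in zygotes, -0.40 to 0.045 for Piwil2 at MII 3W and -0.22 to 0.18 in zygotes, -0.12 to 0.11 for Marf1 and -0.31 to 0.53 for Mov10l1 in zygotes. The causes were not tested.

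FGO 3W had 2 libraries per group, and Piwil2 at MII 3W rested on 10 to 28 counts per library.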
